A study of Mus musculus with 24 samples.

Results

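The genes described here encode the proteins of the cytoplasmic ribosome. They are the rows whose symbol is Rpl or Rps followed by a number, together with *Rplp0*, *Rplp1*, *Rplp2* and *Rpsa*, that are annotated as protein-coding and average at least 100 normalised counts over the 24 libraries. They were thus chosen by their mean normalised count as well as by name. Of 83 matching symbols, 80 reached this mean, out of 51912 gene rows in all, and 32 of the 80 belong to the small subunit and 48 to the large. *Rps3a1* was counted as a single gene with its near-identical copies *Rps3a2* and *Rps3a3*, which the annotation calls processed pseudogenes. The gene nearest above the threshold was *Rpl12*, with a mean of 184.6 on its own row. The 3 genes below it were *Rpl39l* at 2.28, *Rpl3l* at 0.0408 and *Rpl10l*, which was listed at 0 in every library.

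RNA came from dissected archicortex, the medial edge of the embryonic cortex that includes the dentate neuroepithelium and the cortical hem, of mouse embryos on a mixed C57BL/6J;MF1 background. There were 6 groups of 4 libraries: E13.5 embryos of genotype Sox9fl/fl;Sox1Cre (mutants, A1 to A4) or Sox9+/+;Sox1Cre (controls, A5 to A8), the same genotypes at E12.5 (mutants A9 to A12, controls A13 to A16), and E13.5 embryos of genotype Sox9fl/fl;NestinCre (mutants, A17 to A20) or Sox9+/+;NestinCre (controls, A21 to A24). Every control thus carried the same Cre as its mutants. Recombination by *Sox1*Cre begins before the cortex forms and covers all of the archicortex. That by *Nestin*Cre is later and incomplete in this tissue, with the cortical hem mainly outside it. The labels do not tie libraries to litters, so *p*-values measure the spread between these libraries. Depth ran from 16163560 to 49445219 reads on genes per library, with a median of 23016925. *Lhx2*, a cortical transcription factor, lay between 6623 and 20568 normalised counts, and *Wnt8b*, a signal of the medial cortical wall, between 3429 and 16809, so that both regional markers were present in every library.

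*Sox9* itself, a transcription factor of neural progenitors, was lower in all 3 mutant groups. At E13.5 the *Sox1*Cre mutants had 3363 ± 376 normalised counts (SD, n = 4) against 5578 ± 306 in their controls, and the *Nestin*Cre mutants had 3134 ± 162 against 5152 ± 465. At E12.5 the *Sox1*Cre mutants had 2260 ± 508 against 4522 ± 503. No mutant library reached its controls in any of the 3 comparisons, and *Sox9* passed the threshold in each (limma, adjusted *p* = 0.0023, 0.0295 and 6.2e-05). The conditional allele keeps its first exon after recombination, so these gene-level counts include reads from RNA that the deletion leaves in place.

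A ribosome has a small subunit that reads the mRNA and a large subunit that joins amino acids, and most ribosomal proteins are present in equal numbers per particle. Many of their mRNAs begin with a C followed by an unbroken run of pyrimidines, the terminal oligopyrimidine motif, through which growth signalling by mTOR and LARP1 sets their translation. Because these mRNAs are short and abundant in the germ line, they have been copied back into the genome many times, leaving processed pseudogenes that lack introns and can differ from the parent gene by few bases or by none. In proliferating neuroepithelium the demand for new ribosomes is high.

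The start of the transcript was read from RefSeq promoters (GRCm38.p6), which held an entry for 60 of the 80 genes. In 13 of these 60 (21.7%) an annotated start was a C followed by at least 4 pyrimidines, against 3.01% of 27025 genes in the same table. When the run was allowed to begin up to 3 bases to either side, 25 of the 60 genes (41.7%) and 3651 of the 27025 met it. Of the 13 genes, 5 are printed to show how the run varies, as 15 bases before and 15 bases after the start, with the run in capitals. They are *Rpl15* (chr14:18270972-18271001, minus strand), *Rps10* (chr17:27635230-27635259, minus), *Rps6* (chr4:86857353-86857382, minus), *Rplp2* (chr7:141447636-141447665, plus) and *Rps21* (chr2:180257364-180257393, plus).
Rpl15: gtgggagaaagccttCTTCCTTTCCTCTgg
Rps10: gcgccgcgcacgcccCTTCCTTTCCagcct
Rps6: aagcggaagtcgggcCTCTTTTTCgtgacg
Rplp2: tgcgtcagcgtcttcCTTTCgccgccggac
Rps21: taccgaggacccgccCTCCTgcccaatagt
The run was 13 bases long in *Rpl15* and 5 in *Rplp2* and *Rps21*. In the whole 300-base windows, CCGGAAG on either strand was found in 41.7% of these genes against 9.93% of all genes, and AANATGGC on either strand in 21.7% against 6.96%. These letters describe the windows and do not show that a factor binds there.

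The second kind of sequence that matters here is the coding sequence of the copies, since it decides whether a read can be told to come from the gene or from its copy. Stretches of 60 coding bases are printed for 4 genes and their copies, read from GENCODE M21 transcripts (GRCm38), with the bases that differ in capitals and positions counted from the A of the start codon. All lie in coding exons of the gene or in an exon of the pseudogene. The first set covers bases 201 to 260 of *Rps3a1*, a small-subunit protein (chr3:86141333-86141392, minus), *Rps3a2* (chr14:88123549-88123608, minus) and *Rps3a3* (chr13:108670803-108670862, plus).
Rps3a1: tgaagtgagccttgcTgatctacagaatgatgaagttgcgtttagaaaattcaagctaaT
Rps3a2: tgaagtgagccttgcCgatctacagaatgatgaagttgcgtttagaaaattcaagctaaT
Rps3a3: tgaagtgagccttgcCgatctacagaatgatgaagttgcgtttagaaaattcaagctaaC
Here *Rps3a2* carries T216C, and *Rps3a3* carries T216C and T260C. Bases 160 to 219 of *Rpsa*, the small-subunit protein also known as the laminin receptor precursor (chr9:120129184-120129243, plus), compare with *Rpsa-ps10* (chr3:150073324-150073383, minus) as follows.
Rpsa: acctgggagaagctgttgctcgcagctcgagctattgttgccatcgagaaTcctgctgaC
Rpsa-ps10: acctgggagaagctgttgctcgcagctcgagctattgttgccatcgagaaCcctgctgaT
The changes are T210C and C219T. Bases 4 to 63 of *Rpl3*, which lies near the peptidyl transferase centre (chr15:80082523-80082582, minus), differ from *Rpl3-ps1* (chrX:13202575-13202634, plus) by C57A.
Rpl3: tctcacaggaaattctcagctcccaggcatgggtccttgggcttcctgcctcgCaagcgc
Rpl3-ps1: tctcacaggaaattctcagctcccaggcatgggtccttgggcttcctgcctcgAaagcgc
The first 60 coding bases of *Rps7*, a small-subunit protein (chr12:28635595-28635654, minus), differ from *Gm6472* (chrX:152910061-152910120, minus) by T26G and G48A.
Rps7: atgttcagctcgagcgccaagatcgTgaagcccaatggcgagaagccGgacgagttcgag
Gm6472: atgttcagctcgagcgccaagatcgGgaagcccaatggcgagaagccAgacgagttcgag
Over the whole aligned coding sequence, *Gm6472* differed from *Rps7* at 3 of 585 bases, *Rpsa-ps10* from *Rpsa* at 6 of 885, and *Rpl3-ps1* from *Rpl3* at 2 of 1209.

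Such copies held a large part of the signal. By sequence, 78 of the 80 genes had at least 1 copy, defined as a transcript at least 90% identical to the gene over at least 100 bases and over at least 50% of its own length. There were 1015 pseudogene copies and 6 protein-coding copies, of which 60 averaged at least 100 normalised counts and 663 averaged under 1. Copies, *Rps3a2* and *Rps3a3* included, took between 22.7% (A8) and 29.6% (A17) of the family's summed counts. On 18 genes the gene's own row held less than 50% of the sum, and on 38 it held more than 95%.

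For several genes the row that carries the gene's name held the smaller part of the sum. *Rpl12*, a protein of the base of the ribosomal stalk, held 184.6 normalised counts, against 11963 on *Gm10275*, which is identical to it over all 498 coding bases. *Rpl5*, which binds the 5S rRNA, held 1172 against 20257 on *Gm15500*, identical over 894 coding bases. For *Rpl12* and *Rpl5*, reads from coding sequence cannot be told apart from those of the copy, and RSEM shares them between the rows by estimation, so the low values of these 2 rows do not measure the protein's mRNA. *Rps7* held 3166 against 13572 on *Gm6472*, from which 3 coding bases separate it.

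Levels were compared between genes per kilobase of the shortest complete coding transcript, with copies summed. The median gene had 15735 normalised counts per kilobase. The highest was *Rpl41*, which encodes a very short peptide of the large subunit, at 33397, followed by *Rps2*, a protein of the mRNA entry channel, at 29412. *Rplp0*, the stalk protein often used as a reference gene, stood at 25517. The lowest were *Rps27l*, the p53-responsive paralogue of *Rps27*, at 2373 and *Rps20* at 2431, the latter divided by an unusually long annotated transcript of 3706 bases, which lowers its value. Other genes were also divided by transcripts long for their coding part, which lowers their values too. Examples are *Rpl5* (2045 bases, 297 codons), *Rps3* (1908 bases, 243 codons) and *Rpl12* (1242 bases, 165 codons). On the members' rows alone the median was 12022 per kilobase, and *Rpl12* fell to 149. The plot of levels per kilobase shows that the spread between genes narrows once copies are added.

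**Figure D1:**
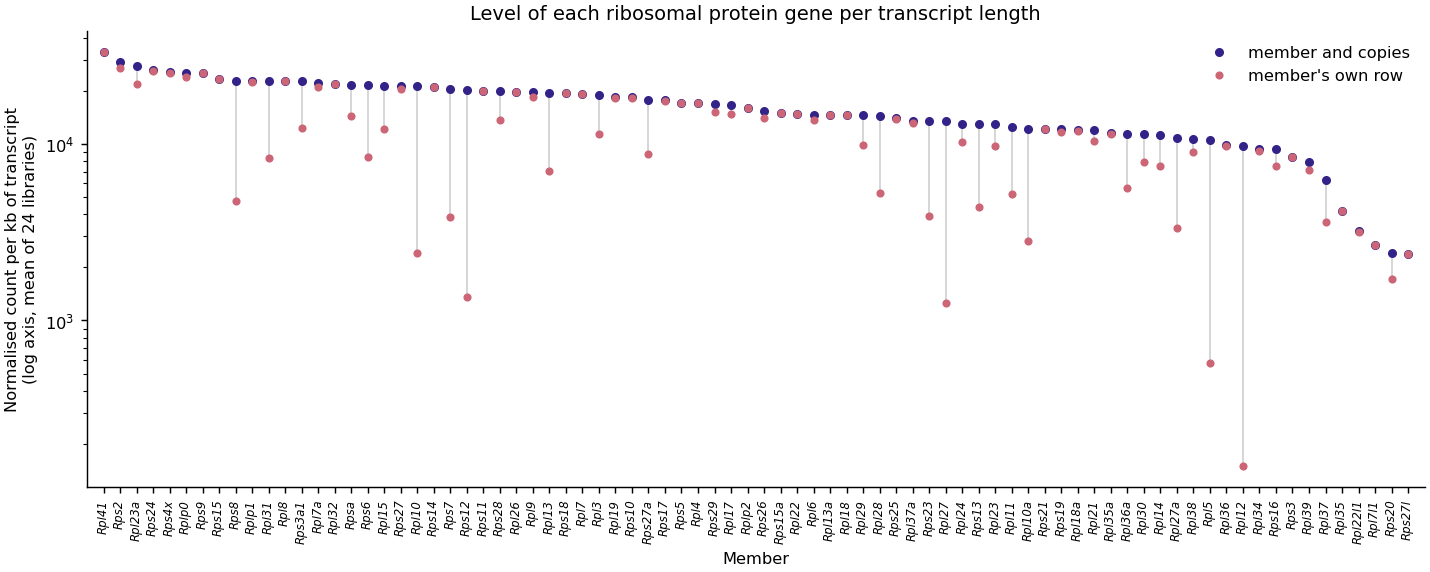
Normalised counts per kilobase of transcript (log axis) for the 80 genes, as the gene's own row and with all sequence copies summed, averaged over 24 libraries. With copies summed the genes run from 2373 to 33397 per kilobase, whereas *Rpl12* lies at 149 on its own row.

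By mean normalised count without division by length, the 5 rows with the most counts were *Rplp0* (32742), *Rps2* (26959), *Rpl4* (26401), *Rps4x* (24879) and *Rpsa* (23014). The 5 with the fewest were *Rpl12* (184.6), *Rps12* (675), *Rpl27* (771), *Rpl5* (1172) and *Rps27l* (1184). With copies added, *Rps27l* had the lowest mean of the 80 genes, at 1184, and the other 4 of these reached 8283 (*Rpl27*) or more. The 5 highest were then *Rpsa* (34855), *Rplp0* (34652), *Rps2* (29354), *Rpl4* (26416) and *Rpl3* (25675), with *Rps4x* next at 25069.

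How much of a gene lay on its own row also differed between libraries, and for some genes it moved in steps. *Rps3a1* held 98.9 to 99.4% of its summed counts on its own row in A1 to A4, A10 and A11. It held between 52.9 and 55.4% in A8, A9, A12 to A16, A19, A20 and A22 to A24, and between 15.6 and 16.7% in A5, A6, A7, A17, A18 and A21. No library lay between these 3 levels. *Rps3a2* and *Rps3a3* filled the remainder. In A1, A2, A3 and A4 *Rps3a2* had 55.7, 65.6, 142 and 62.7 normalised counts, and in A5, A6, A7 and A8 it had 13410, 11224, 9963 and 5601.

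*Rpsa*, *Rpl3* and *Rpl29* fell into 3 levels as well, in other sets of libraries. The *Rpsa* row held 22.6 to 24.1% of the sum in A3, A10 and A11, 46.9 to 49.3% in A1, A2, A4, A18, A19, A21, A22 and A24, 50% in A17, and 86.9 to 91.2% in the rest. The *Rpl3* row held 18.2 to 20.5% in A18 to A22 and more than 89% in A1 to A4, A8 to A10 and A12 to A14. *Rpl29*, a small basic protein of the large subunit, ranged from 21.2% in A12 to 99.0% in A20. In *Rps2* only A11, A17 and A22 departed from the other libraries, at 45.6 to 46.7% against 98.3 to 98.8%, and in *Rpl34* only A17 did, at 47.5%. The *Rplp0* row held 78.8 to 79.7% in A17 to A20, A23 and A24, all of them *Nestin*Cre libraries, and over 99.5% in all others.

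**Figure D2:**
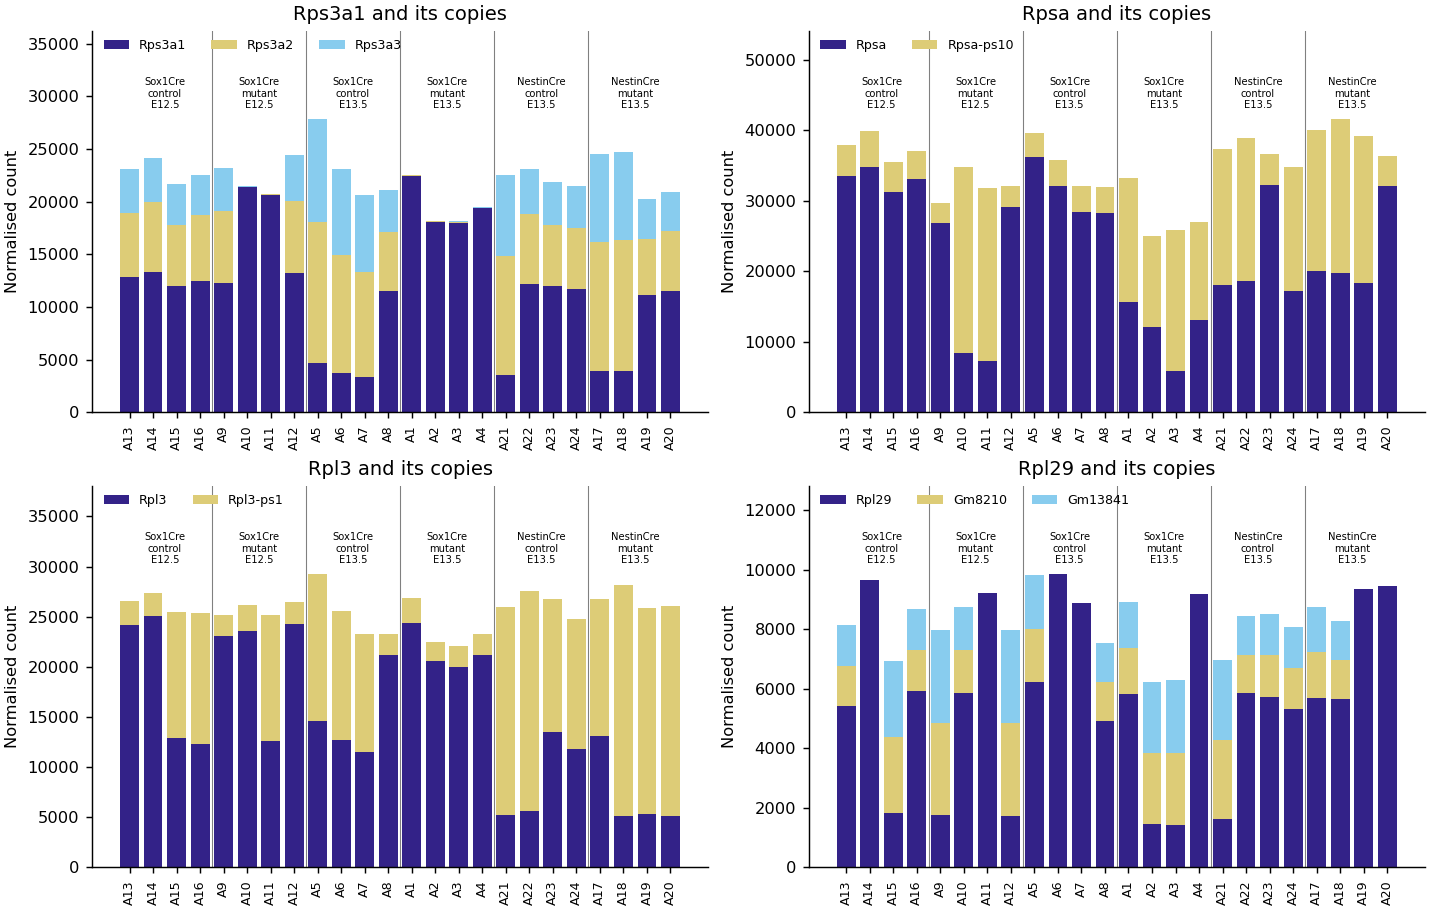
Normalised counts on the gene's row and on its most abundant copies, stacked for each of 24 libraries, for *Rps3a1*, *Rpsa*, *Rpl3* and *Rpl29*. Summed over all copies, including those not drawn, the highest library is 1.33 (*Rpl3*) to 1.66 (*Rpsa*) times the lowest. The part on the gene's own row moves between levels, from 15.6 to 99.4% for *Rps3a1*.

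Over the 80 genes, the own-row share ranged by more than 30 percentage points between libraries for 8 genes (*Rps3a1*, *Rpl29*, *Rpl3*, *Rpsa*, *Rps2*, *Rpl34*, *Rpl30* and *Rpl23a*), by less than 5 points for 42, and by 5 to 30 points for the other 30. A separate pattern was shared by A5, A9, A12 and A17, and in part by A24. In these libraries *Rpl23a* had its highest own-row shares, 96.6, 96.4, 95.9, 93.0 and 93.5%, against at most 85.2% elsewhere. *Rps29* had its lowest there, 74.8, 73.2, 75.9, 78.6 and 84.7%, against at least 90.7% elsewhere. What sets the shares was not tested.

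**Figure D3:**
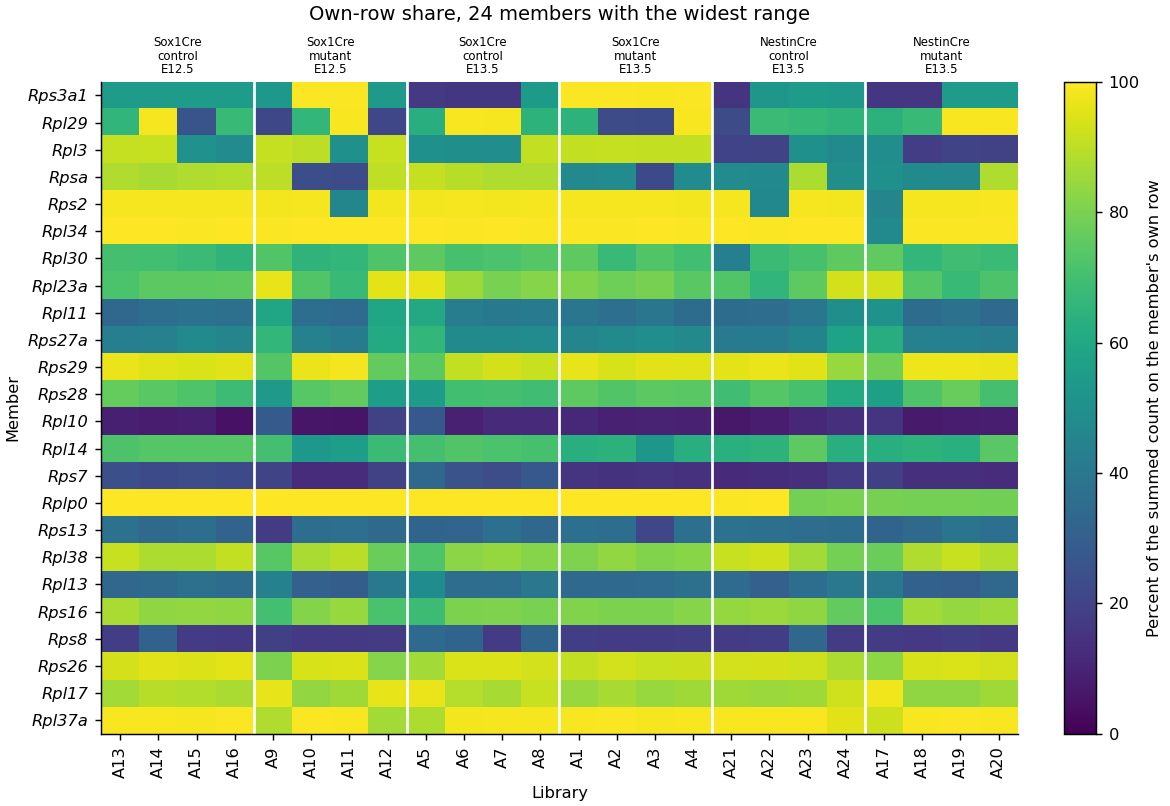
Share of the summed counts that lies on the gene's own row (colour, percent) for the 24 genes with the widest range, in each of 24 libraries. *Rps3a1*, *Rpl3*, *Rpsa* and *Rpl29* change level between libraries of the same group, and A5, A9, A12 and A17 share a pattern over *Rpl23a* and *Rps29*.

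Adding the copies narrowed the range of the most variable genes and widened that of others. The highest library was up to 6.91 times the lowest on the members' rows (*Rps3a1* taken as the sum of its 3 rows) and at most 1.92 times with copies summed. The median coefficient of variation over 24 libraries was 10.7% for the members' rows and 10.3% with copies, with a maximum of 60.9% (*Rpl10*) and 17.4% (*Rps28*). It was lower with copies for 36 genes, among them all 10 with over 20% on their rows, equal for 3 and higher for 41. *Rps29*, for example, went from 8.42 to 16.6%, *Rps28* from 9.42 to 17.4% and *Rpl38* from 9.56 to 14.7%. For 5282 other genes with a mean of at least 1000 the median was 7.75%. With copies summed, each gene's correlation with the total of the others over the 24 libraries had a median of 0.918, a description of libraries that share their scaling. It was lowest for *Rpl22l1*, the paralogue of *Rpl22*, at 0.164, so that this paralogue followed the others least.

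The family as a whole took between 2.76% (A3) and 3.94% (A5) of a library's counts on the members' rows. Groups averaged 2.99 ± 0.27% in the *Sox1*Cre mutants at E13.5 and 3.34 ± 0.42% in their controls, 3.44 ± 0.28% and 3.36 ± 0.16% at E12.5, and 3.15 ± 0.16% and 3.11 ± 0.07% in the *Nestin*Cre line (SD, n = 4 each). In the *Sox1*Cre mutants at E13.5 the values were 3.35, 2.80, 2.76 and 3.06% in A1 to A4, and in the controls they were 3.94, 3.32, 3.01 and 3.08% in A5 to A8, so the groups overlapped. With copies the same libraries held 4.399, 3.69, 3.68 and 3.98% against 5.11, 4.30, 3.92 and 3.93%. Of the 80 genes with copies summed, 64 were highest in A5, and 37 and 36 were lowest in A2 and A3. A5 had a median of 1.26 times the other libraries over the 80 genes, A2 and A3 both had 0.842 times, and A1 had 1.08 times.

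**Figure D4:**
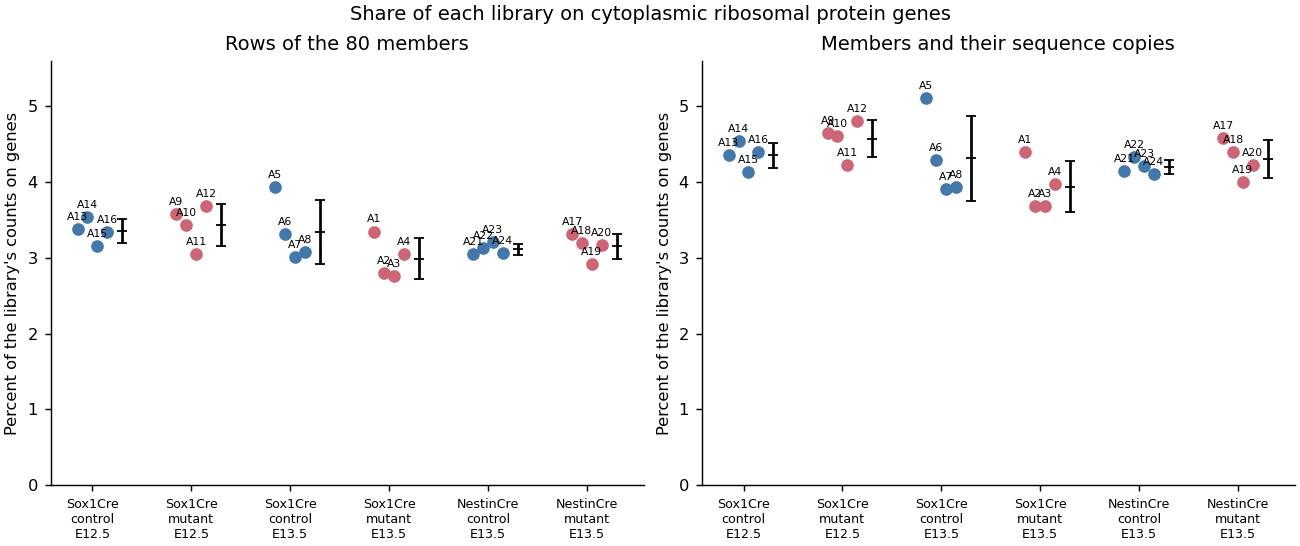
Percent of each library's counts on the 80 ribosomal protein genes, on the members' rows and with sequence copies summed, by group; points are libraries and bars are mean ± SD (n = 4). A5 is the highest library at 3.94% and A3 the lowest at 2.76%, and mutants and controls overlap in each pair.

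The first question was which of these genes differ when *Sox9* is absent from the whole archicortex. In the *Sox1*Cre mutants at E13.5, *Rps7* was the only row to pass the threshold (limma with Benjamini-Hochberg adjustment over all 16452 rows tested), and it was lower. That is 1 of 80, beside 0.9% of all rows tested. *Rps7* had 2684, 2048, 2092 and 2177 normalised counts in A1 to A4 and 6825, 4325, 3720 and 4520 in A5 to A8, and every mutant lay below every control. The log2 change was -1.08 (SE 0.18, adjusted *p* = 0.0033), and an exact permutation test gave *p* = 0.0286, the smallest that 4 against 4 allows. Fitted on these 8 libraries alone *Rps7* did not pass (adjusted *p* = 0.0661) and 0 of 80 did, beside 0.258% of all rows, with 6 at an unadjusted *p* under 0.05 beside 1124 of 15522 rows. Array weights called 17 of 80 beside 5.82% of all rows, DESeq2 3 beside 2.15% and edgeR 1 beside 0.857%, all of the 80 that were called being lower.

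*Rps7* passed the threshold on its own row and not in the sum with its copies. The *Gm6472* row had a log2 change of 0.04 (SE 0.07, limma, adjusted *p* = 0.887). With copies summed, *Rps7* had 17450, 13872, 13607 and 15289 normalised counts in A1 to A4 and 20150, 17008, 15617 and 16388 in A5 to A8. The groups then overlapped, and the log2 change was -0.20 (SE 0.08, adjusted *p* = 0.271). The *Rps7* row held 14.2 to 15.4% of this sum in the mutants and 23.8 to 33.9% in the controls.

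The *Rpsa* row had 15641, 12099, 5860 and 13065 normalised counts in A1 to A4 and 36246, 32066, 28395 and 28308 in A5 to A8, with no overlap. The log2 change of -1.50 (SE 0.37, adjusted *p* = 0.0535) did not pass the threshold. With copies summed the libraries had 33240, 25081, 25887 and 27076 against 39734, 35908, 32255 and 32100, so that A1 lay above A7 and A8. The smaller log2 change of -0.33 (SE 0.08, adjusted *p* = 0.0488) passed the threshold, 1 of 80 beside 0.903% of the 16282 rows tested with copies summed. This call was lost when A2, A3, A4, A5, A6 or A7 was left out (limma, adjusted *p* between 0.0515 and 0.17).

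*Rps3a1* moved in the opposite direction to its copies. On its own row it averaged 19460 ± 2091 normalised counts in the *Sox1*Cre mutants and 5817 ± 3873 in their controls at E13.5 (SD, n = 4), whereas *Rps3a2* and *Rps3a3* were lower in the mutants, with log2 changes of -6.97 (SE 1.013, adjusted *p* = 0.000623) and -7.86 (SE 1.24, adjusted *p* = 0.00158). Summed over the 3 rows the log2 change was -0.24 (SE 0.09, adjusted *p* = 0.262). The row named *Rps3a1* was thus higher in the group where its copies were lower, and the sum did not pass the test.

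Across the family, estimates for the *Sox1*Cre mutants at E13.5 were mostly negative. On the members' rows 76 of 80 estimates were negative, with a median log2 change of -0.16 against -0.005 over all rows tested, and 20 of 80 (25%) had an unadjusted *p* under 0.05 beside 1931 (11.7%) of all 16452 rows. With copies summed all 80 were negative, with a median of -0.16. The small subunit had a median of -0.20 over its 32 genes and the large subunit -0.13 over its 48. The 3 stalk proteins, *Rplp0*, *Rplp1* and *Rplp2*, had a median of -0.16, the 4 X-linked genes *Rpl10*, *Rpl36a*, *Rpl39* and *Rps4x* -0.15, and the 18 genes known from Diamond-Blackfan anaemia, an inherited failure of red cell production, -0.18. These genes share their libraries, and a common shift of a library moves them together. Without A5 the median with copies summed was -0.06 and 11 of 80 estimates were positive, whereas without A1 it was -0.23 and 10 genes passed the threshold, beside 3.15% of all rows. On the members' rows 7 genes passed without A1, beside 3.09%.

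**Figure D5:**
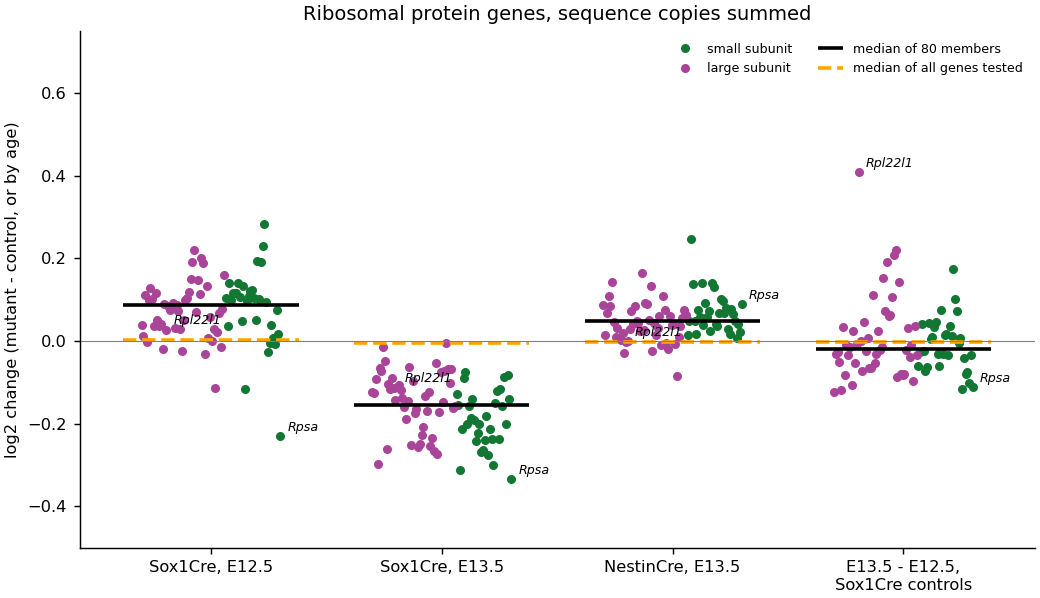
Log2 change of the 80 genes with copies summed in 4 comparisons; each point is a gene, and lines mark the medians of the 80 genes and of all genes tested. All 80 lie below 0 in *Sox1*Cre mutants at E13.5 (median -0.16), while most lie above 0 in the *Nestin*Cre mutants and in *Sox1*Cre mutants at E12.5.

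Other measures stood apart in the same libraries. *Xist*, the X inactivation RNA, had 2.7, 4616, 5934 and 2.0 normalised counts in A1 to A4 and at most 2.3 in A5 to A8, so that A2 and A3, the libraries with the lowest ribosomal protein share, were the only *Xist*-expressing libraries among these 8. With log2 *Xist* in the model the median over the 80 genes with copies summed was -0.10. None passed the threshold, beside 0.583% of all rows (limma, with 4 at an unadjusted *p* under 0.05, beside 1761 of 16282 rows). In the *Nestin*Cre controls only A23 expressed *Xist*, and its share on the members' rows was the highest of that group, 3.21%. Of the *Nestin*Cre mutants, A18 and A20 expressed *Xist* and held 3.20 and 3.17%, against 3.32 and 2.92% in A17 and A19. Whether sex sets the share was not tested. The 4 choroid plexus markers, led by *Ttr*, summed to 5982 in A1 and to between 57408 and 76593 in A2 to A4, against 23803 to 55258 in the controls. The 7 erythroid markers, led by *Hbb-y*, summed to 167790 in A5 and to between 82229 and 123090 in A6 to A8. In A1 to A4 they summed to 82615, 143930, 116740 and 75825, so among the mutants the libraries with the lowest ribosomal protein share, A2 and A3, had the most. A1, without which more of the 80 genes passed, had the lowest sums of all 24 libraries for the 4 meningeal markers (9881 normalised counts, against 15878 to 22159 in A2 to A4 and 16733 to 23935 in A5 to A8), the 3 endothelial markers (1965, against 3533 to 4782 and 3755 to 4332) and the 3 microglial markers (635, against 1015 to 1502 and 934 to 1376). The 7 neuronal markers summed to 34518, 18283, 21811 and 35480 in A1 to A4 and to 18147 in A5, against 22687 to 32832 in A6 to A8. A5, with the highest ribosomal protein share, thus had the lowest neuronal sum of the controls. Among the mutants, A2 and A3, with the lowest share, also had the lowest neuronal sums. All genes of these 6 lists averaged at least 10 normalised counts, and none of them passed the threshold in this comparison. The part of these cell types in the family's values was not tested, and in bulk tissue fewer cells of a type and less RNA per cell cannot be told apart.

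When *Sox9* was deleted with *Nestin*Cre, none of the 80 genes passed the threshold, beside 0.0669% of all rows (0.0676% with copies summed). With limma, 1 gene had an unadjusted *p* under 0.05 on the members' rows, beside 1064 of all rows, and 0 with copies summed, and edgeR and DESeq2 on the recovered reads also called 0, beside 0.0304% and 0.225% of all rows. The median log2 change was 0.04 on the members' rows, with 63 of 80 positive, and 0.05 with copies summed, with 71 positive. *Rpsa*, for example, had 39388 ± 2181 normalised counts with copies summed in mutants and 37032 ± 1714 in controls (log2 change 0.09, adjusted *p* = 0.987). All 4 markers of Cajal-Retzius cells, the earliest neurons of the cortical surface, had positive estimates (median 0.43), as did 6 of 7 neuronal markers (0.11). All 7 erythroid, 4 meningeal, 3 endothelial and 3 microglial markers had negative estimates, with medians of -0.06, -0.19, -0.15 and -0.10. Of 4 choroid plexus markers 1 was positive. These lists gave 0 calls, and their part in the family's values was not tested.

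At E12.5 the *Sox1*Cre mutants likewise had 0 of 80 genes past the threshold, beside 0.723% of all rows (0.743% with copies summed). With limma 4 had an unadjusted *p* under 0.05 on the members' rows, beside 2215 of all 16452, and 3 with copies summed, beside 2199 of 16282, and edgeR and DESeq2 on the recovered reads called 0, beside 0.644% and 1.79% of all rows. The medians were 0.04 with 54 positive and 0.09 with 69 positive. *Xist* had 2.5, 3644, 3587 and 3.8 normalised counts in A9 to A12 and 3660 to 4451 in all 4 controls, and with log2 *Xist* in the model the medians were 0.003 with 45 positive and 0.03 with 55 positive. The 4 choroid plexus markers summed to 26386, 23406, 33027 and 11403 in A9 to A12 and to between 10854 and 20358 in the controls. All 4 had positive estimates, with a median of 0.48 and 0 calls, and their part in the family's values was not tested. The *Rps7* row had 3672, 2353, 2192 and 3691 normalised counts in A9 to A12 and 4376, 4365, 4021 and 4117 in A13 to A16, with no overlap, as at E13.5 (log2 change -0.54, SE 0.18, adjusted *p* = 0.188; with copies summed -0.01). The *Rpsa* row had 26851, 8403, 7269 and 29081 against 33541, 34758, 31321 and 33105, again with no overlap (log2 change -1.17, SE 0.37, adjusted *p* = 0.158). Exact permutation gave *p* = 0.0286 for both rows. *Rpsa* with copies summed had 29769, 34832, 31891 and 32192 normalised counts in A9 to A12 and 38088, 40004, 35575 and 37215 in A13 to A16. All mutants lay below all controls, with a log2 change of -0.23 (SE 0.08, adjusted *p* = 0.209). The paralogue *Rps27l* had 1314 ± 91 against 1150 ± 68 on its own row, a log2 change of 0.19 (adjusted *p* = 0.409), and its libraries overlapped.

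The differences between these changes were tested in the same model. Between the *Sox1*Cre and *Nestin*Cre changes at E13.5, 0 of 80 genes passed, beside 0.0425% of all rows (0.043% with copies summed). With limma 11 (13.8%) had an unadjusted *p* under 0.05, beside 8.24% of all rows, and 12 (15%) with copies summed, beside 8.2%. edgeR on the recovered reads called 0 beside 0.0304% of all rows, DESeq2 called 1, *Rps7*, beside 0.565%, and array weights called 6 beside 2.19%. Without A1 limma called 2 on the members' rows, beside 0.859%, and 5 with copies summed, beside 0.904%. Between the *Sox1*Cre changes at E13.5 and E12.5, limma, edgeR and DESeq2 each called 0 of the 80. That is beside 0% of all rows with limma, with or without copies summed, 0% with edgeR and 0.109% with DESeq2. Here 19 genes (23.8%) had an unadjusted *p* under 0.05 with limma, beside 7.38% of all rows, and 25 (31.2%) with copies summed, beside 7.33%. The median differences were -0.20 in both on the members' rows, and -0.21 and -0.22 with copies summed. The *Sox1*Cre groups at E13.5 are shared by both differences. With copies summed, the median of the *Sox1*Cre change at E13.5 was smaller in size without A5 or with log2 *Xist* in the model, as given above.

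Development from E12.5 to E13.5 was compared in the *Sox1*Cre controls, where 11.5% of all rows passed the threshold (11.7% with copies summed) against 2 of the 80 genes. *Rpl22l1*, the paralogue of the RNA-binding protein gene *Rpl22*, was higher in the E13.5 than in the E12.5 libraries. It had 2292, 1800, 1791 and 2038 normalised counts in A5 to A8 and 1608, 1518, 1550 and 1330 in A13 to A16, and every E13.5 library lay above every E12.5 library. The log2 change was 0.40 (SE 0.12, adjusted *p* = 0.0372) and 0.41 with copies summed (adjusted *p* = 0.0318), while exact permutation gave *p* = 0.0286. The *Nestin*Cre controls, also E13.5, had 1602 ± 193 normalised counts, closer to the E12.5 *Sox1*Cre controls (1502 ± 120) than to those of E13.5 (1980 ± 237). They lay below every *Sox1*Cre control of their own age (log2 difference -0.31, SE 0.12, adjusted *p* = 0.358, exact permutation *p* = 0.0286). *Rpl28*, a large-subunit protein, fell by 0.21 on its own row (SE 0.07, adjusted *p* = 0.0402), from 4391 ± 226 to 3790 ± 319. With copies summed it had 11324 ± 356 and 10905 ± 1569, a log2 change of -0.06 (adjusted *p* = 0.64). Leaving out each library in turn gave 0 to 2 calls with age (0 to 1 with copies summed), so neither gene passed in every refit. The log2 change then ran from 0.32 to 0.44 for *Rpl22l1* and from -0.26 to -0.16 for *Rpl28* on the members' rows. Over all 80 genes the median log2 change was -0.01, with 36 positive.

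Cell type markers moved in this comparison too. Of 7 neuronal markers 6 rose, *Neurod6* by 2.97, *Stmn2* by 1.3003, *Neurod2* by 1.27, *Neurod1* by 1.11, *Dcx* by 1.10 and *Tbr1* by 0.50 on the log2 scale. Of 4 markers of Cajal-Retzius cells, *Reln* rose by 1.04 and *Calb2* by 1.52. Of 11 archicortex and cortical hem markers 2 rose and 3 fell. *Prox1*, 1 of the 2, rose by 0.53, while *Emx2*, *Wnt3a* and *Wnt8b* fell, with log2 changes of -0.22, -0.83 and -1.10. Of 7 erythroid markers 4 fell, the embryonic globin genes *Hba-x* and *Hbb-y* with log2 changes of -2.33 and -1.32, *Alas2* with -0.97 and *Hba-a1* with -0.70. Of 4 meningeal markers *Dcn* rose by 0.47. All 4 choroid plexus markers had positive estimates, with a median of 1.39 and 0 calls. The progenitor, dividing cell, endothelial and microglial lists also gave 0 calls, and the part of these cell types in the family's values was not tested. The E12.5 controls all expressed *Xist*, at 3660 to 4451 normalised counts, and the E13.5 *Sox1*Cre controls had 1.1 to 2.3, so sex and age cannot be told apart here. With log2 *Xist* in the model neither *Rpl22l1* nor *Rpl28* passed (limma, adjusted *p* = 0.35 and 0.294), and 0 rows of the whole table did, 2461 having an unadjusted *p* under 0.05.

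The control groups of the 2 Cre lines at E13.5 differed in *Rps7* alone among the 80, beside 0.243% of all rows (0.227% with copies summed). The *Rps7* row had 1984, 2228, 2289 and 2654 normalised counts in A21 to A24, below all of A5 to A8, a log2 change of -1.05 (SE 0.18, adjusted *p* = 0.0134). Leaving out each library in turn gave 0 to 1 calls among the 80, so *Rps7* did not pass in every refit. Its log2 change ran from -1.17 to -0.87 in these refits. With copies summed its log2 change was -0.08 (adjusted *p* = 0.81) and the groups overlapped, and none of the 80 passed. Its range in these controls, whose *Sox9* is intact, overlapped that of the *Sox1*Cre mutants.

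Genes that work with the ribosomal proteins were counted in the same fits. Of 19 translation factors and other genes of the same mRNA class, 0 passed the threshold in any mutant comparison. In the *Sox1*Cre mutants at E13.5, 14 of these 19 estimates were negative, with a median of -0.07. *Eef1a1*, the factor that brings aminoacyl-tRNA to the ribosome, had a log2 change of -0.13 (adjusted *p* = 0.555), and *Rack1*, a scaffold on the small subunit, -0.10 (adjusted *p* = 0.713). Of the 19 estimates, 14 were also negative in the *Sox1*Cre mutants at E12.5 (median -0.04), and 8 in the *Nestin*Cre mutants (median 0.007). With age in the controls *Pabpc1*, the cytoplasmic poly(A)-binding protein, fell by 0.24 (adjusted *p* = 0.0191), the only gene of the 19 to pass.

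Of 30 ribosome biogenesis genes, 0 passed in the mutant comparisons, with medians of -0.03 in *Sox1*Cre mutants at E13.5, -0.11 at E12.5 and -0.06 in *Nestin*Cre mutants. Only *Rrn3*, which recruits RNA polymerase I to ribosomal DNA, changed with age, by 0.17 (adjusted *p* = 0.0111). Of 16 genes of growth signalling, 0 passed in the mutants and *Rps6kb2*, an S6 kinase, fell by 0.35 with age (adjusted *p* = 0.0193). Of 78 mitochondrial ribosomal proteins, which form a separate ribosome, 0 passed in the mutants, with medians of -0.03, 0.004 and -0.03 in the same order, and *Mrps2* fell by 0.16 with age (adjusted *p* = 0.0236). The 8 ribosomal protein genes outside the symbol rule, among them *Fau*, which encodes a ribosomal protein fused to a ubiquitin-like domain, gave 0 calls in these comparisons. *Fau* is also 1 of the 19 above. *Rpl10-ps3*, *Rps12-ps3*, *Rpl9-ps6*, *Rps27rt* and *Rpl37rt*, the last annotated as a pseudogene, are also among the summed copies. In *Sox1*Cre mutants 7 of the 8 estimates were negative at E13.5 (median -0.20) and 6 positive at E12.5 (0.03). In *Nestin*Cre mutants 7 were positive (0.10).

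Of the cell type markers, the progenitor gene *Vim* was the only one of all the lists to pass in the *Sox1*Cre mutants at E13.5, with a log2 change of -0.26 (adjusted *p* = 0.0298); the other 5 progenitor markers did not pass. None of the 6 markers of dividing cells passed there, and their median was -0.09. The 4 meningeal and 3 endothelial markers had all estimates negative, with medians of -0.28 and -0.35 and 0 calls. In that comparison 6 of 7 neuronal markers had positive estimates, with a median of 0.08 and 0 calls.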

How the data were processed

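Libraries were made by the authors with the KAPA mRNA HyperPrep kit and sequenced on a HiSeq 4000. The authors trimmed reads with Trimmomatic 0.36, aligned them to GRCm38 with STAR 2.5.2a, estimated counts per gene with RSEM 1.2.31 and normalised them with DESeq2. The deposited signal is the rounded count divided by 1 size factor per library, neither logged nor pooled, and whole reads were recovered from 100% of values in each library (within 0.1 read). The strand setting is not given in the sources used here, so overlapping antisense genes cannot be separated. RSEM divides reads that match several genes between them by estimation.

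Genes and copies were matched in GENCODE M21 (GRCm38) with BLAST 2.17.0; copies were at least 90% identical over at least 100 bases and at least 50% of the copy. Rows with at least 10 in at least 4 libraries were tested on log2(value + 1), which understates the change of low genes, with limma 3.58.1 in R 4.3.3 (1 mean for each of 6 groups, 24 libraries, trend, 18 residual degrees of freedom, two-sided, Benjamini-Hochberg adjustment, threshold 0.05). 7 contrasts were fitted. Single genes were compared by exact two-sided permutation over 70 assignments. Totals and row shares were described without a test.

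Alternatives were other pseudocounts, filters, scalings and copy rules, edgeR 4.0.16 and DESeq2 1.42.0 on recovered reads, array weights, log2 *Xist* as a covariate, the libraries of 1 comparison alone and each library left out. Fits were tested on simulated data. Summing all copies was chosen after the split between rows was seen. The members and lists were chosen with earlier results of these data known. Genes named are *Sox9*, members past the threshold and their copies, the 5 with the highest and the 5 with the lowest mean, the 10 with the widest range over libraries, those nearest the mean of 100, and list genes past the threshold; *Rps27l*, *Rpl41*, *Rps20* and others were chosen after their values were seen. The results for 2 genes of these lists are not reported here.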

Additional observations from a re-analysis of the deposited data

Results flagged for a closer look

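In 6 of 90 groups of 4 libraries, a library lay far from the other 3 by Dixon's criterion (gap over range); chance alone sets apart about 1 group in 20. On the *Rpsa* row, A23 (32189 normalised counts) was far above the other *Nestin*Cre controls and A20 (32084) far above the other *Nestin*Cre mutants; these are the *Nestin*Cre libraries in which the *Rpsa* row held the larger part of the sum with its copies. On the *Rpl28* row, A24 (3742 normalised counts) was far below the other *Nestin*Cre controls. The nearly empty *Rpl12* row stood apart at 120 normalised counts in A18, the lowest *Nestin*Cre mutant, and at 203 in A9, the highest *Sox1*Cre mutant at E12.5. *Rpl22l1* with copies summed was far higher in A1 (2546 normalised counts) than in the other *Sox1*Cre mutants at E13.5.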

How the results depend on the processing

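Counts of genes called out of 80 were small, so few calls separate one setting from another, and the cause of each difference was not tested unless stated. In *Sox1*Cre mutants at E13.5 (1 called) 17 were called with array weights (5.82% of all rows), 3 with DESeq2 (2.15%), 2 with *Rps3a1*, *Rps3a2* and *Rps3a3* kept as separate rows (0.924%), and 0 with the 8 libraries of the comparison alone (0.258%), which has fewer residual degrees of freedom. With all copies summed there were 0 with quantile normalisation (0.854%) and 0 with *Xist* as a covariate (0.583%). For the difference between the Cre lines (0 called), array weights gave 6 (2.19%) and DESeq2 1 (0.565%). With age in the controls (2 called), array weights gave 4 (19.7%), no filter 0 (4.51%) and *Xist* as a covariate 0 (0%); summing pseudogene copies gave 1, as did summing all copies, alone or with edgeR, quantile normalisation or scaling to the same total (11.4 to 11.99% of all rows), and 0 with *Xist* (0%). Between the control groups (1 called), 0 were called with pseudogene copies or all copies summed, alone or with edgeR, quantile normalisation, scaling to the same total or *Xist* (0.148 to 0.270% of all rows).

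Leaving out each library in turn gave 1 to 7 calls in *Sox1*Cre mutants at E13.5 (0 to 10 with copies summed), while 0.536 to 3.09% of all rows were called (0.523 to 3.15%). It gave 0 to 2 for the difference between the Cre lines (0 to 5), beside 0.0304 to 0.859% of all rows (0.0307 to 0.904%), and the highest values of both came without A1. It gave 0 to 2 with age (0 to 1), beside 4.83 to 16.01% (5.03 to 16.2%), and 0 to 1 between the control groups (0 in each with copies summed), beside 0.0669 to 0.189% (0.0615 to 0.185%). The other comparisons gave 0 of the 80 throughout. The total's ratio of mutants to controls ran from 0.861 to 0.954 in *Sox1*Cre mutants at E13.5, 0.9997 to 1.06 at E12.5 and 0.995 to 1.04 in *Nestin*Cre mutants. In *Sox1*Cre mutants at E13.5 the ratio was lowest without A1 and highest without A5. Of the genes named as passing the threshold, *Rps7*, *Rpsa*, *Rpl22l1* and *Rpl28* were followed through these settings and kept their direction; the genes named from the other lists were not. Scaling changed the share of positive estimates: in *Nestin*Cre mutants 63 of 80 were positive as deposited and 51 with libraries scaled to the same total. No paired analysis was possible because the labels give no replicate numbers that groups share. Depth was at least 16163560 reads per library, and how reads were divided among copies cannot be checked from the deposited values.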
